A study of Mus musculus with 14 samples.

Results

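Of 14363 H3K4me3 peaks called in Myc-driven medulloblastoma tumour cells that carried Cas9 alone, 1567, or 10.9% (10.4 to 11.4), are described here. Each overlapped no H3K27me3 island and no H3K27ac peak in those cells, no H3K27ac peak of the Ezh2 knockout, and no H3K4me3 peak of the knockout, with 1 shared base counting as overlap. They are called lost H3K4me3-only peaks below. Lost means that no peak was called in the knockout, not that the mark was absent there. The peaks were chosen by those calls, so that their loss, their lack of acetylation and their lack of H3K27me3 are descriptions and no result. The same conditions, apart from the loss, held for 2569 further Cas9 peaks that the knockout kept, and these kept H3K4me3-only peaks serve as the comparison.

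The tumour cells are tumorsphere cells of Group 3 medulloblastoma that over-express Myc, and both kinds lack p53 and p18 per the genotype label (p53-/-;p18-/-). The knockout carries Ezh2-/- in addition, while the label of the Cas9 cells names no change in Ezh2. Per the growth protocol the cells were infected with retroviral vectors, sorted for 2 fluorescent proteins and expanded before transplantation. The labels do not say whether a line was 1 clone, nor whether chromatin was taken before or after transplantation. The neurosphere lists used for comparison came from floating cultures of mouse neural cells of genotype p53-/-;p18-/-. Of these lists 3 used an antibody to Cas9, in the U6, Suz12F1 and Suz12F2 cells, and the other two an antibody to Gfi1, in the Suz12F2 and Cas9 cells. Every group held 1 library, so no test across samples was possible. Ranges in parentheses after a share are 95% intervals by Wilson's method. They hold counting error alone, and read depth is unknown. Positions are in build mm9. No gene annotation or sequence of that build was used here, so regions are named by position.

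H3K4me3 is laid down by the SET1 and MLL enzymes, mostly on the nucleosomes that flank transcription start sites, and its width and height rise with promoter activity. H3K27ac marks active promoters and enhancers and cannot share a lysine with H3K27me3, the mark that Ezh2 places within Polycomb repressive complex 2. A promoter often gives several neighbouring H3K4me3 peaks, 1 on each side of the start site or at nearby start sites. A peak with H3K4me3 alone can thus be the shoulder of an active promoter, a weakly used promoter, or a place where the signal barely passed a caller's threshold.

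Of all Cas9 H3K4me3 peaks, 2090 were not called in the knockout (14.6%), and 1567 of those 2090 were H3K4me3-only. Among the 4136 H3K4me3-only peaks the share lost was 37.9%. For description, 2.91% of the 7114 peaks with H3K27ac in Cas9 cells and 11.9% of the 1796 peaks with H3K27me3 were not called in the knockout. The rule used these calls and bars peaks with H3K27ac in the knockout, of which 247 of 8733 were lost, so nothing is read from the order of these shares. The lost H3K4me3-only peaks covered 0.428 Mb, which was 4.40% of the length of all Cas9 H3K4me3 peaks.

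The lost peaks were short and had low scores. Their median length was 235 bp with quartiles of 192 and 312 bp, against 429 bp (288 and 611) for kept H3K4me3-only peaks and 601 bp for all Cas9 H3K4me3 peaks. The longest measured 1489 bp, and 78 of 1567 reached 500 bp. The shortest length in the Cas9 list was 180 bp, and 14.7% (13.01 to 16.52) of the lost peaks had exactly that length, against 2.88% (2.301 to 3.601) of the kept ones. The score that the authors gave each peak, whose meaning the list does not state, had a median of 12 (quartiles 10 and 14) in the lost class. It was 18 (14 and 25) in the kept class and 26 over the whole list, whose scores run from 7 to 98. Of the lost peaks, 900 scored 12 or less, or 57.4%, against 421 of the kept ones, or 16.4%. At or above the median of the whole list stood 9 of the 1567 lost peaks.

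The share lost fell at each step up in score. Among H3K4me3-only peaks with scores from 7 to 9 it was 76.6% (70.9 to 81.5), from 10 to 12 66.2% (63.3 to 69.0), and from 13 to 15 47.1% (43.8 to 50.4). From 16 to 19 it was 25.96% (22.91 to 29.25) and from 20 to 29 8.03% (6.34 to 10.1). Of the 411 H3K4me3-only peaks with a score of 30 or more, 1 was lost. Length gave the same order: 74.4% (70.9 to 77.5) of the peaks under 200 bp were lost, 54.9% from 200 to 299 bp, 29.8% from 300 to 499 bp, 7.85% from 500 to 999 bp and 2 of 118 of those of 1 kb or more. Score and length come from the same list that chose the peaks, so these values describe the class.

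Most lost peaks lay beside an H3K4me3 peak that the knockout kept. The median gap, counted as bases between a lost peak and the nearest kept peak, was 339 bp. A kept peak lay within 2 kb of 1021 lost peaks, or 65.2% (62.8 to 67.5), where the share was 47.5% (45.6 to 49.5) for kept H3K4me3-only peaks with any other kept peak and 36.1% for all Cas9 H3K4me3 peaks. The gap was 200 bp or less for 36.0% of the lost peaks, from 201 to 500 bp for 19.5%, from 501 to 1000 bp for 6.76% and from 1001 to 2000 bp for 2.87%. The smallest gap was 51 bp, as it was in the whole list. The other lost peaks were 348 at 2 to 50 kb and 198 over 50 kb from any kept peak. Those 198 made up 12.6% (11.1 to 14.4), against 20.1% (18.6 to 21.7) of kept H3K4me3-only peaks and 28.0% of all Cas9 H3K4me3 peaks. When the gap was taken to any other Cas9 H3K4me3 peak, a measure that uses no knockout call for the neighbour, 72.4% (70.1 to 74.5) of lost and 54.1% (52.1 to 56.0) of kept H3K4me3-only peaks had one within 2 kb.

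**Figure D1:**
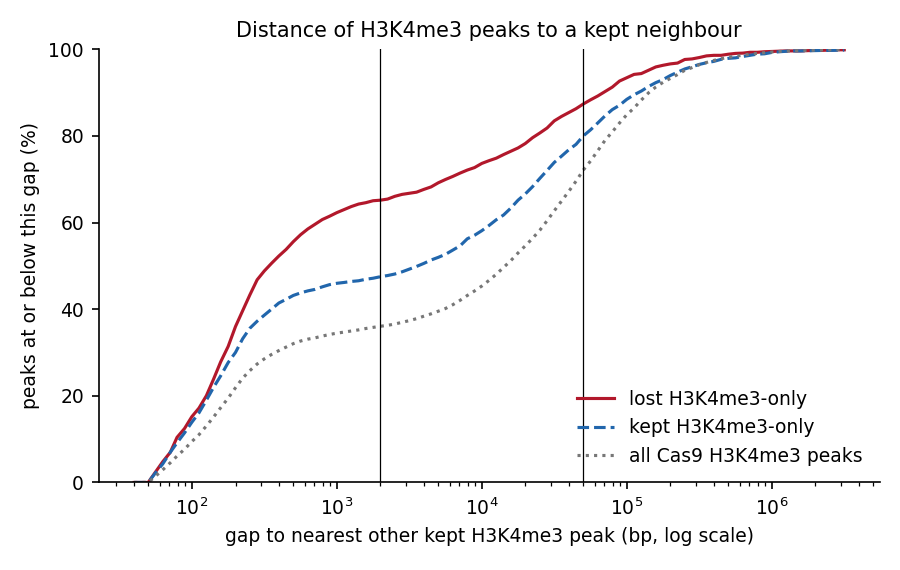
Cumulative share of peaks (percent, y axis) by the gap to the nearest other H3K4me3 peak that the knockout kept (bp, log scale, x axis), for 1567 lost H3K4me3-only peaks, 2569 kept ones and all 14363 Cas9 H3K4me3 peaks. The vertical lines stand at 2 kb and 50 kb, and at 2 kb the curves read 65.2%, 47.5% and 36.1%.

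Seen from the neighbourhood, 45.5% (43.5 to 47.6) of the 2242 H3K4me3-only peaks with a kept peak within 2 kb were lost, against 28.8% (26.8 to 30.9) of the 1894 without one. The share lost was highest, 59.2% (51.9 to 66.1), where the kept peak was 501 to 1000 bp away, and lower at 200 bp or less, 42.2% (39.6 to 44.9). Beyond 10 kb it was 27.7% in both classes of distance. At short gaps, a knockout peak that reaches over from the neighbour makes a peak count as kept. The rule can thus in part set the lower share at 200 bp or less.

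Position beside a kept peak went together with a low score. The intervals of the lost and kept class overlapped in all score ranges except 16 to 19, where they were narrowly apart. Among peaks with scores from 10 to 12, 69.3% (65.8 to 72.6) of the lost and 69.5% (64.6 to 74.0) of the kept had a kept neighbour within 2 kb. With scores from 13 to 15 these shares were 63.35% (58.59 to 67.86) and 58.10% (53.56 to 62.51). From 16 to 19 the counts were 114 of 190 lost peaks (interval 52.9% to 66.7%) and 262 of 542 kept peaks (44.2% to 52.5%), and from 20 to 29 the shares were 50.0% (38.1 to 61.9) and 38.1% (34.6 to 41.6). In terms of loss, with scores from 10 to 12 the share lost was 66.1% (62.7 to 69.4) with a kept neighbour and 66.4% (61.1 to 71.2) without. With scores from 13 to 15 it was 49.2% (45.0 to 53.5) and 43.8% (38.6 to 49.0), and from 16 to 19 it was 30.3% (25.9 to 35.1) and 21.3% (17.4 to 25.9). For this split the intervals overlapped at scores up to 15 and met at 25.9% from 16 to 19. Split by any other Cas9 peak within 2 kb instead, the share lost was 66.5% (63.1 to 69.6) with and 65.4% (59.6 to 70.9) without a neighbour at scores from 10 to 12. It was 50.3% (46.3 to 54.3) and 40.2% (34.7 to 46.0) from 13 to 15, and 29.98% (25.83 to 34.49) and 20.3% (16.2 to 25.2) from 16 to 19, with intervals apart in both ranges. From 20 to 29 it was 9.56% (6.96 to 13.01) and 6.73% (4.73 to 9.50), with overlapping intervals.

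**Figure D2:**
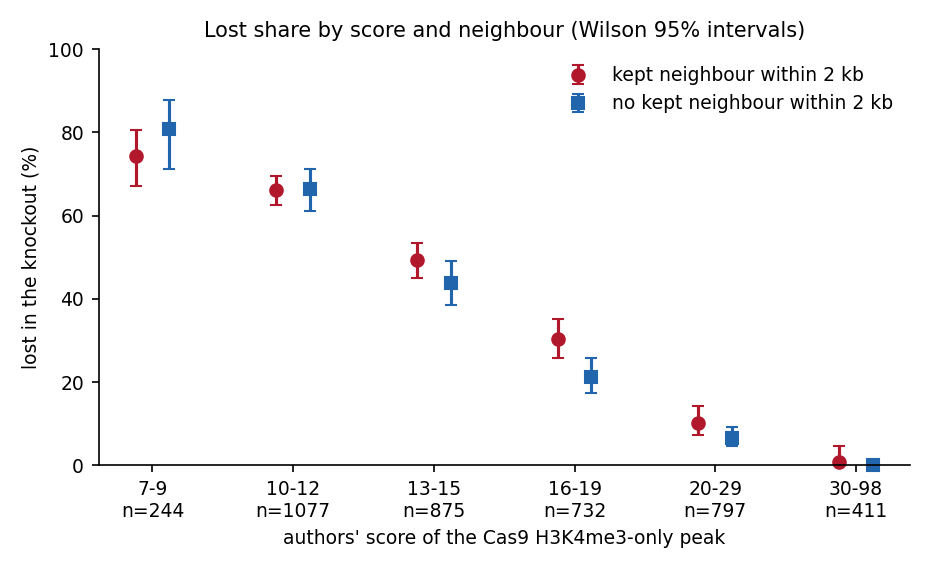
Share of Cas9 H3K4me3-only peaks lost in the knockout (percent, y axis) in 6 ranges of the authors' score (x axis, with the number of peaks), split by whether a kept H3K4me3 peak lay within 2 kb. Bars are Wilson 95% intervals; the share fell from 74.4% with and 81.0% without a neighbour at scores of 7 to 9 to 1 of 411 peaks at 30 or more in both groups together.

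The kept neighbours of the 1021 flanking peaks were 942 peaks, mostly larger than the flank and mostly acetylated. Of these neighbours 67.3% (64.2 to 70.2) carried H3K27ac in Cas9 cells, against 56.3% (55.4 to 57.2) of all kept peaks, and 75.2% (72.3 to 77.8) did in either kind of cell, against 72.1% (71.3 to 72.9). Their median length was 708 bp and their median score 35, beside 668 bp and 30 for all kept peaks. The flanking peak was shorter than its neighbour in 958 of 1021 cases and had the lower score in 959. A Cas9 H3K27ac peak lay within 1 kb of 64.4% (61.5 to 67.3) of the flanking peaks, near the 60.9% (60.1 to 61.7) of all Cas9 H3K4me3 peaks, where an overlap counts as within 1 kb. Over all lost peaks it was 43.8% (41.3 to 46.2), against 25.9% (24.2 to 27.6) of kept H3K4me3-only peaks. Among the lost peaks over 50 kb from any kept peak it was 3.54% (1.72 to 7.12), a value bound up with the distance that defines them. The lost class also held more flanks, 65.2% against 47.5% of the kept H3K4me3-only peaks. The shares of 43.8% and 25.9% were not matched for this. H3K27me3 was found on 15 of the 942 neighbours, or 1.59%, against 12.9% of all kept peaks. The rule in part sets this low value, since it bars flanks that an island covers. All kept peaks include more peaks with H3K27me3, so the acetylated shares above are compared across unlike sets. How far this accounts for their difference was not tested.

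Most neighbours, 870 of 942, had a single lost flank, and 72 had 2 or more. Of those 72, 27 had lost flanks on both sides, or 37.5% (27.2 to 49.0). Of the 1021 flanking peaks 38 lay between 2 kept peaks that were both within 2 kb. With all flanking peaks turned so that the kept neighbour was on the same side, Cas9 H3K4me3 covered at most 79.1% of them there, at 525 bp from the centre of the lost peak. Knockout H3K4me3 covered at most 71.4%, at 575 bp. On the opposite side, more than 400 bp from the centre, no list covered more than 4.80% of the flanking peaks at any place within 2.5 kb. H3K27ac reached 39.6% in Cas9 cells and 42.3% in the knockout, on the side of the neighbour. These peaks were chosen for a kept peak within 2 kb and turned toward the nearest one. The contrast between the sides is therefore largely set in advance and is no result.

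**Figure D3:**
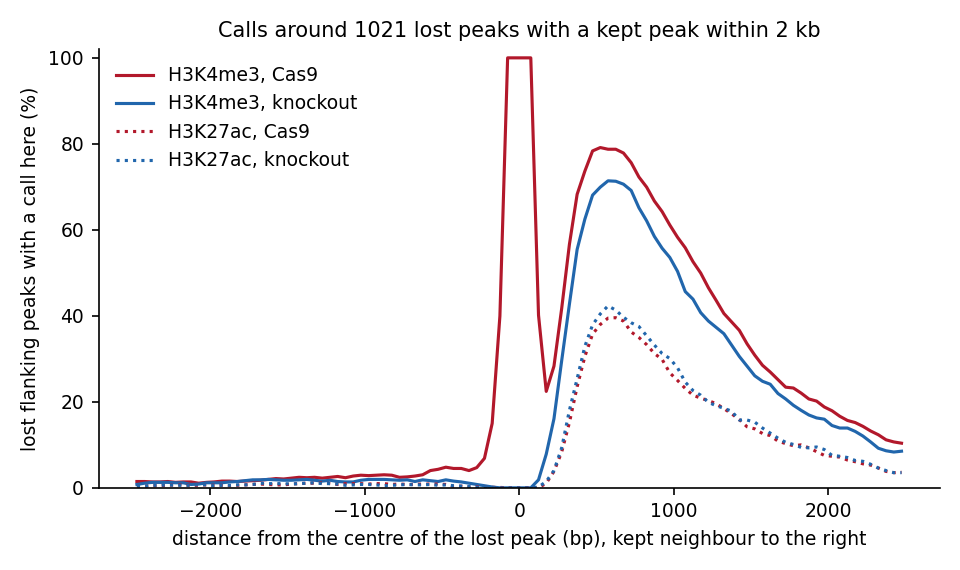
Share of the 1021 flanking lost peaks (percent, y axis) with a called peak of each list at each distance from the centre of the lost peak (bp, x axis), turned so that the kept neighbour lies to the right. Calls of all 4 lists rise on the right, to 79.1% for H3K4me3 of Cas9 cells and 71.4% for that of the knockout. The choice and turning of the peaks largely set this side. At the centre, knockout H3K4me3 and the H3K27ac of both cells are at 0 by the rule.

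The kept neighbours were narrower in the knockout, by a like amount on the side of the lost flank and on the other. In the knockout, the edge of the neighbour that faced the lost peak lay inside its Cas9 position in 64.8% (61.9 to 67.7) of cases, by a median of 24 bp over all of them. The opposite edge lay inside in 61.9% (58.9 to 64.8), by a median of 27 bp. The facing edge could not reach the lost peak by the rule, which limits how far outward it can lie. The knockout partner of the neighbour was shorter than the neighbour in 70.7% (67.7 to 73.5) of cases, against 66.4% (65.5 to 67.2) of all kept peaks, and the median change in length was a fall by 70.5 bp, beside a fall by 67 bp. Shortening was thus somewhat more frequent among the neighbours than among all kept peaks, with close median changes. The limit on the facing edge holds for the neighbours by choice, so the rule in part sets this difference. The partner was the knockout peak with the largest overlap, so a peak split into several knockout calls can count as shorter.

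The lost peaks with the highest scores were partly of this kind. A score of 26 or more was given to 9 lost peaks, of which 4 had a kept peak within 2 kb. The highest, 31, belonged to 275 bp on chromosome 9 from 107775267 to 107775541, 103 bp from a kept peak of 850 bp and score 47 with H3K27ac in both kinds of cell. Chromosome 4 from 155571741 to 155572193 (score 29) lay 91 bp from a kept peak of score 66 without H3K27ac in either. Chromosome 12 from 4923841 to 4924069 (score 26) lay 75 bp from a kept acetylated peak of score 59, and overlapped Cas9 antibody islands of the U6 and Suz12F2 neurospheres. Chromosome 19 from 5388853 to 5389297 (score 26) lay 127 bp from a kept peak. The other five stood farther off. Chromosome 2 from 80457324 to 80457762 (score 29) was 21205 bp from a kept peak, and chromosome 11 from 49057128 to 49058048 (score 27, length 921 bp) was 5916 bp away. The remaining 3, all with a score of 26, were 2588 bp away on chromosome 13 from 21371005 to 21371452, 15237 bp on chromosome 3 from 95674994 to 95675744, and 35289 bp on chromosome 12 from 81269214 to 81269545.

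The longest lost peak had a low score and no close neighbour. It spanned 1489 bp on chromosome 5 from 124527561 to 124529049, scored 14 and lay 36956 bp from a kept peak. The next, 1055 bp on chromosome 11 from 112645749 to 112646803 with a score of 24, lay 239 bp from a kept acetylated peak of 1978 bp. The third by length is the chromosome 11 peak of score 27 above. The other two, of 916 bp on chromosome 18 from 36124414 to 36125329 and of 885 bp on chromosome 4 from 120712120 to 120713004, were 26064 and 22208 bp from a kept peak. Of the 5 longest, 1 thus lay within 2 kb of a kept peak.

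The isolated lost peaks were weak rather than a strong class of their own. The 198 peaks over 50 kb from a kept peak had a median score of 12 and a median length of 249 bp, close to the 12 and 228 bp of the 1021 flanking peaks. Their highest score was 24. The farthest lay 3944095 bp from a kept peak, on chromosome 6 from 77929243 to 77929575, with a score of 12. It was followed by chromosome 14 from 84842809 to 84843181, 2697374 bp away with a score of 11, and chromosome 3 from 73512280 to 73512460, 2247251 bp away with a score of 9. Chromosome X from 151772580 to 151772850 and chromosome 17 from 59152471 to 59152770 were 1839273 and 1762254 bp away, with scores of 12 and 15. The lone lost peak of chromosome Y, from 347071 to 347277, was the one peak of that chromosome in the Cas9 list. Isolation refers to kept peaks alone. Another lost peak lay within 2 kb of 41 of the 198, and 20 had a knockout H3K4me3 peak within 2 kb that overlapped no Cas9 peak.

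Lost peaks were found on all chromosomes in the Cas9 list, in numbers close to proportional to the H3K4me3-only peaks. The share of H3K4me3-only peaks lost ran from 25.4% (18.3 to 34.1) on chromosome 16 and 31.9% (25.9 to 38.5) on chromosome 8 to 44.6% (37.0 to 52.4) on chromosome 6. Chromosome 16 was the one chromosome of 20, Y left out, whose interval excluded 37.9%. Chromosome X stood apart in how its peaks lay, while its loss was near the mean. Its share lost was 38.8% (32.3 to 45.7), but 57.3% (52.0 to 62.3) of its 351 H3K4me3 peaks were H3K4me3-only, against 28.1% (27.3 to 28.8) on autosomes, so that lost peaks made up 22.2% of its peaks, against 10.6%. Of the 78 lost peaks on X, 26.9% (18.3 to 37.7) had a kept peak within 2 kb, against 67.2% (64.8 to 69.5) on autosomes. Kept H3K4me3-only peaks on X had a like share, 21.95% (15.55 to 30.05).

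**Figure D4:**
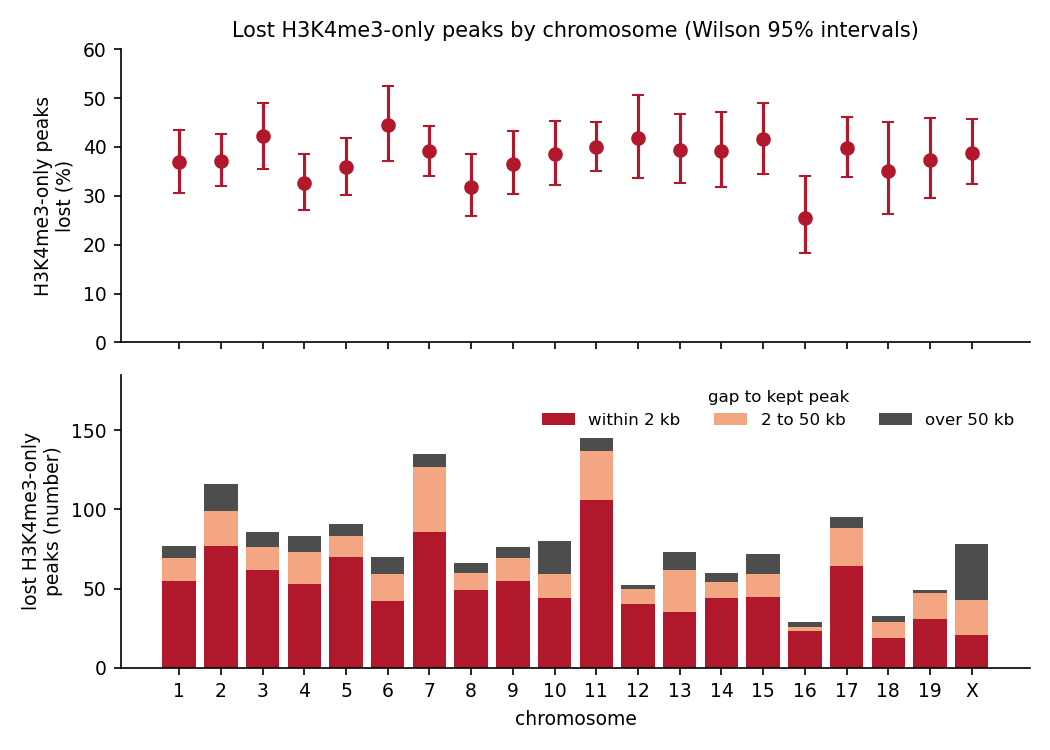
Top, share of H3K4me3-only peaks lost (percent) on each chromosome with Wilson 95% intervals; bottom, number of lost peaks on each chromosome, stacked by the gap to the nearest kept peak. Shares lie between 25.4% (chromosome 16) and 44.6% (chromosome 6), and chromosome X has the most lost peaks over 50 kb from a kept one, 35 of 78.

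Along chromosomes most lost peaks stood alone. Joined across gaps of at most 10 kb, the 1567 peaks formed 1397 groups, of which 1260 held 1 peak, 109 held 2, 24 held 3, 3 held 4 and 1 held 5. Another lost peak lay within 10 kb of 19.6% (17.7 to 21.6) of the lost peaks, and a lost peak lay as near to 15.96% (14.59 to 17.43) of the kept H3K4me3-only peaks. Of the 137 groups of 2 or more, 42 with 99 peaks had no kept peak inside or within 2 kb. In windows of 1 Mb, 837 of the 1929 windows with a Cas9 H3K4me3 peak held a lost peak. The 192 windows richest in H3K4me3 peaks of any kind held 37.6% of the lost peaks, 38.8% of the kept H3K4me3-only peaks and 33.2% of all peaks. The lost and kept H3K4me3-only peaks thus had like shares in peak-dense windows.

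The largest groups differed in make-up. On chromosome 3 from 89215223 to 89226124, 5 lost peaks with scores of 9 to 18 surrounded 1 kept peak, and 82 to 6726 bp separated them from the nearest kept peak. That stretch held 1 H3K27ac peak in Cas9 cells and 0 in the knockout. On chromosome 13 from 22006289 to 22020519, 4 lost peaks with scores of 9 to 17 stood 16458 to 21345 bp from a kept peak, with no H3K27ac, no knockout H3K4me3 and no Gfi1 antibody island in the span. On chromosome 17 from 34400499 to 34402242, 4 lost peaks with scores of 10 to 15 followed each other within 1744 bp. The first was 67 bp from a kept peak, and all 4 lay in 1 Gfi1 antibody island of each neurosphere list. A further group of 4, on chromosome 17 from 34283484 to 34291691, ranked after these by its summed score of 49 against 51, and its peaks stood 23495 to 31484 bp from a kept peak.

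**Figure D5:**
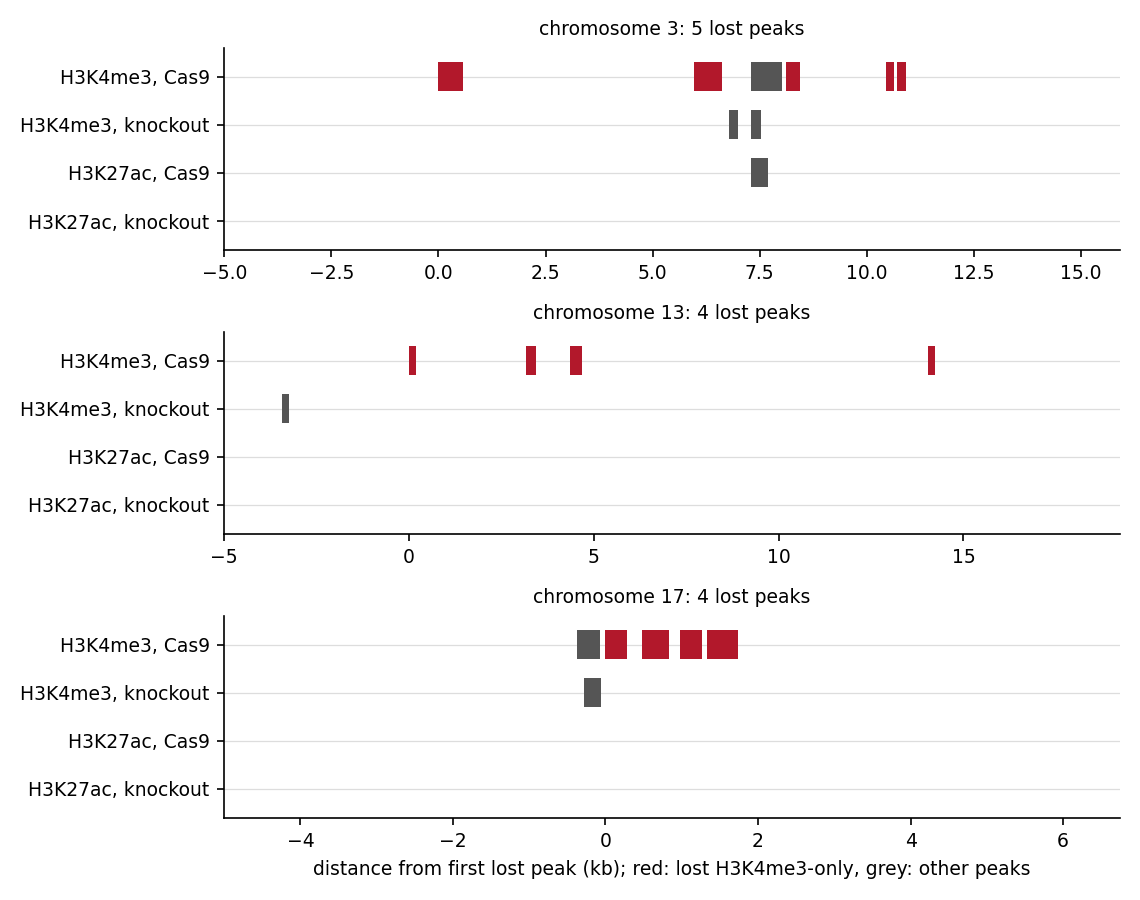
Maps of 3 of the 4 groups with 4 or more lost peaks, ranked by number and then by summed score, with called peaks drawn to scale as boxes in 4 rows (H3K4me3 and H3K27ac of Cas9 and knockout cells) against the distance from the first lost peak (kb, x axis); lost H3K4me3-only peaks are red and other peaks grey. On chromosome 3 the 5 lost peaks surround a kept one, on chromosome 13 no kept peak lies in view and a knockout peak to the left overlaps no Cas9 peak, and on chromosome 17 the 4 lost peaks continue from a kept peak.

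The window with most lost peaks was chromosome 13 from 21000001 to 22000000, with 12 of its 24 H3K4me3-only peaks lost. In the adjoining window, from 22000001 to 23000000, 8 of 9 were lost. Of these 20 peaks 4 had a kept peak within 2 kb, all in the first window, and their median scores were 11.5 and 13.5. Next were chromosome 17 from 34000001 to 35000000 with 11 of 26 lost, chromosome 10 from 79000001 to 80000000 with 10 of 19, and chromosome 9 from 107000001 to 108000000 with 10 of 19, of which 9 lay within 2 kb of a kept peak. The second window on chromosome 13 was ranked below these and is named because it adjoins the first, after its values were seen.

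The lists that the rule did not use were read next. An H3K27me3 island of the knockout overlapped 13 of the 1567 lost peaks, or 0.830% (0.485 to 1.41), against 8 of 2569 kept H3K4me3-only peaks, or 0.311% (0.158 to 0.613), and 1.56% of all Cas9 H3K4me3 peaks. The intervals overlap, and 1554 of 1567 lost peaks had an H3K27me3 island in neither kind of cell. Nearby H3K27me3 was about as frequent at lost peaks as at kept ones. A Cas9 H3K27me3 island lay within 5 kb of 7.28% (6.09 to 8.67) of lost and 7.63% (6.67 to 8.72) of kept H3K4me3-only peaks. Unlike the knockout islands, this list was used by the rule, which bars an overlapping island in the lost and the kept class alike.

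In neurospheres, Gfi1 antibody islands covered most lost peaks, though fewer than other H3K4me3 peaks. Gfi1 is a zinc finger repressor, and these lists are long. The list from cells labelled Cas9 overlapped 78.9% (76.8 to 80.8) of lost and 82.6% (81.1 to 84.1) of kept H3K4me3-only peaks, against 86.4% of all Cas9 H3K4me3 peaks. The list from cells labelled Suz12F2 overlapped 89.5% (87.9 to 90.9) and 95.8% (94.9 to 96.5), against 97.5% of all. In the first list these shares fell with distance from a kept peak in the lost and the kept class. They were 85.3% (83.0 to 87.3) of flanking lost peaks, 71.3% (66.3 to 75.8) of those at 2 to 50 kb and 59.1% (52.1 to 65.7) of those beyond, and 88.1% (86.2 to 89.8), 81.2% (78.5 to 83.8) and 71.9% (67.9 to 75.6) of kept H3K4me3-only peaks in the same order. In the second list the lost class had 92.9%, 84.5% and 80.3% (74.2 to 85.2), and the kept class 96.5%, 95.7% and 94.2% (91.8 to 95.9). On chromosome X the first list overlapped 34.6% of lost and 40.65% of kept H3K4me3-only peaks, against 81.25% and 84.8% on autosomes. The second list overlapped 76.9% and 87.8% on X, against 90.2% and 96.2% on autosomes. Of the peaks over 50 kb from a kept peak, X held 35 of 198 lost and 68 of 516 kept H3K4me3-only peaks. How far chromosome X accounts for the fall with distance was not tested. At scores from 10 to 12 the lost and kept shares in the first list were 77.7% (74.5 to 80.6) and 73.4% (68.6 to 77.6). From 16 to 19 they were 79.5% (73.2 to 84.6) and 85.2% (82.0 to 88.0), and from 20 to 29 82.8% (71.8 to 90.1) and 85.3% (82.5 to 87.6). The order thus differed between score ranges, with overlapping intervals in each of these. In the second list the lost share was the lower in these ranges: 87.7% (85.0 to 89.9) and 92.0% (88.8 to 94.4) from 10 to 12, 91.6% (86.8 to 94.8) and 97.2% (95.5 to 98.3) from 16 to 19, and 96.9% and 97.4% from 20 to 29. Its intervals were apart from 16 to 19. With scores from 7 to 9 the order in this list was the other way, 86.6% (81.0 to 90.8) of lost and 84.2% (72.6 to 91.5) of kept. With scores from 13 to 15 the shares were close, 91.7% and 92.7%.

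Outside both Gfi1 antibody lists lay 222 H3K4me3-only peaks, of which 131 were lost, or 59.0% (52.4 to 65.3), against 36.3% (34.7 to 38.0) of the 3307 in both lists. With scores of 12 or less the shares were 75.2% (66.7 to 82.2) and 69.3% (66.3 to 72.1), and with scores from 13 to 19 they were 49.4% (38.9 to 59.9) and 36.6%. The neurospheres are another culture from the tumour cells, and what part tissue, antibody or background has in this overlap was not tested.

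Islands of the Cas9 antibody lay at few lost peaks. Those of cells labelled U6 overlapped 92, or 5.87% (4.81 to 7.15), against 6.50% (5.61 to 7.52) of kept H3K4me3-only peaks and 13.2% of all Cas9 H3K4me3 peaks. Those of Suz12F2 overlapped 2.94% (2.21 to 3.89) and 3.27% (2.65 to 4.03), against 6.39% of all. Those of Suz12F1 overlapped 1 lost peak, on chromosome 1 from 74379139 to 74379430, and 0.0557% of all peaks. Of the 92 lost peaks in U6 islands, 87 had a kept peak within 2 kb, as did 123 of the 167 kept H3K4me3-only peaks in them. Among flanks, U6 islands overlapped 8.52% (6.96 to 10.4) of lost and 10.1% (8.51 to 11.9) of kept H3K4me3-only peaks.

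Under a like but not mirrored rule the opposite change was rarer. Its peaks were also short and mostly flanks, though less often flanks than the lost ones. The knockout had 3594 H3K4me3 peaks outside Cas9 H3K27me3 islands and outside H3K27ac peaks of both cells, and 609 of these overlapped no Cas9 H3K4me3 peak (16.9%), beside the 37.9% lost in the other direction. These 609 had a median length of 216 bp, and 57.6% (53.7 to 61.5) lay within 2 kb of a knockout peak shared with Cas9 cells. Among the 2985 knockout peaks of that kind that Cas9 cells also had, the share was 57.0% (55.2 to 58.7). These intervals overlap, whereas in the other direction the shares were 65.2% of lost and 47.5% of kept H3K4me3-only peaks. None of these shares was matched for score. The rule for the knockout peaks bars the H3K27me3 islands of Cas9 cells and not those of the knockout. New knockout peaks in former H3K27me3 or with knockout H3K27ac are thus left out, so the rule in part sets the 16.9%. How large that part is was not tested.

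The line between lost and kept can be a matter of few bases. The smallest distance from a lost peak to a knockout H3K4me3 peak was 0 bases, meaning that they abutted. This held for 2 lost peaks, on chromosome 1 from 82283724 to 82284114 and on chromosome 3 from 129235096 to 129235302. A knockout peak stood at most 100 bases away from 178 lost peaks. On the other side of the line, the kept H3K4me3-only peak with the smallest overlap shared 1 base, on chromosome 2 from 38859277 to 38859659, and 168 shared at most 100 bases. The region numbers in the knockout H3K4me3 list skip 467 entries, and 68 lost peaks, or 4.34%, lay between listed knockout peaks with skipped numbers between them, against 69 of 2569 kept H3K4me3-only peaks, or 2.69%. Without those 68 the share within 2 kb of a kept peak was 66.0%.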

How the data were processed

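Chromatin immunoprecipitation with sequencing was analysed from 11 deposited region lists, 1 per library. Build mm9, SICER 1.1, R 2.14.0, SAMtools, Picard and BWA 0.5.9-r26 are named, without roles, per the submitters' processing notes. Islands (H3K27me3 and neurosphere lists) had a window of 200 bp, a gap of 600 bp and a false discovery rate of 0.00001, per the names of the deposited lists. For the narrow H3K4me3 and H3K27ac peaks, the sources used here name no caller. The authors gave every region a score of unstated meaning, used only within the Cas9 H3K4me3 list. The 3 input libraries were not used here.

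Island ends were extended by 1 bp, since they name the last base counted from 0. Overlap needed 1 bp, gaps are bases between regions, and a peak within 2 kb of a kept peak is called a flank. Windows of 1 Mb lay on a fixed grid by peak start. Shares carry Wilson 95% intervals (scipy 1.17.1, numpy 2.4.6, Python 3.11.15; figures by matplotlib 3.10.9). Overlap counts were checked against bedtools 2.31.1 in 20 list and rule combinations, of which 0 differed, and tested on simulated data. With 1 library per group no test was run, and library totals are not in the lists.

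Regions named were the 5 highest-scoring (with those tied for the last place), 5 longest and 5 farthest from a kept peak, the 3 largest groups (ties by summed score), the 3 windows with most members and the peaks nearest the limit of the rule; exceptions were picked after their values were seen. The peaks and the questions asked of them were chosen with earlier results of these data known. Alternatives were the overlap required, the score and length of peaks, the chromosomes, Cas9 antibody islands and the gaps. The skipped region numbers and the gap to any Cas9 peak were added after seeing the data.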

Additional observations from a re-analysis of the deposited data

How the results depend on the processing

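The share of lost H3K4me3-only peaks within 2 kb of a kept peak depended on how loss and neighbour were defined. It was 58.1% when 50% of a peak had to be covered, 60.2% with the upper 90% of knockout scores, 59.2% without peaks in Cas9 antibody islands, 37.2% for peaks of at least 500 bp and 44.4% in the upper 50% of Cas9 scores, where 9 peaks were left. With gaps of 1 kb and 5 kb it was 62.3% and 69.2%, to knockout peaks 68.1% and to any other Cas9 peak 72.4%. When a knockout peak within 1 kb counted as kept, 553 lost peaks were left and the share was 9.58%, which follows from that rule, since it removes most flanks. The number lost was 9 of 611 H3K4me3-only peaks in the upper 50% of scores and 78 of 1086 at 500 bp or more, so the share lost was lower there too, at 1.47% and 7.18%.

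The share over 50 kb away was 15.9% with 50% cover, 32.4% with the 1 kb rule, 22.2% in the upper 50% of scores, 15.8% with the upper 90% of knockout scores, 21.8% at 500 bp or more, 10.9% on autosomes, 15.9% without Cas9 antibody islands, 21.7% with a limit of 20 kb and 9.25% to any Cas9 peak. In the same order up to 500 bp, and then without Cas9 antibody islands and to any Cas9 peak, the median gap was 553, 24279, 5916, 484, 6734, 474 and 244 bp. The share with another lost peak within 10 kb was 26.01% with 50% cover, 0% in the upper 50% of scores, 23.9% with the upper 90% of knockout scores, 5.13% at 500 bp or more and 31.7% within 50 kb. For the Gfi1 antibody list of Cas9 neurospheres the share was 67.1% with the 1 kb rule, 85.9% at 500 bp or more and 81.3% on autosomes, and for that of Suz12F2 neurospheres 83.5% with the 1 kb rule and 91.0% at 500 bp or more. Knockout H3K27me3 overlapped 0% in the upper 50% of scores and at 500 bp or more. Where no construction is named, the cause was not tested. Another 33 values stayed within the interval of the main value, or within 1.5 times for the count. Read depth is unknown, and its part in the lost calls was not tested. Leaving out a replicate was not run, since it would leave a group empty. The gap to any other Cas9 peak and the skipped numbers were chosen after seeing the data. No paired analysis was possible because each group held 1 library.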

Other observations

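An H3K27me3 island of the knockout overlapped 13 lost peaks, against 8 of 2569 kept H3K4me3-only peaks and 1.56% of all Cas9 H3K4me3 peaks. The rule bars Cas9 H3K27me3 islands, so the lack of a Cas9 island at the 13 is no result. Of the 13, 7 had a kept H3K4me3 peak within 2 kb, where the share was 65.2% over all lost peaks. The highest score among them was 14, at chromosome 17 from 50432017 to 50432251, which was 101848 bp from a kept peak and also lay in a U6 Cas9 antibody island, and at chromosome 3 from 95707855 to 95708244, 72 bp from a kept peak. Another, chromosome 3 from 95709277 to 95709456 with a score of 9, lay 549 bp from that same kept peak, on its other side. These positions were picked after their values were seen.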
